A study of Mus musculus with 12 samples.

Results

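Of 9283 protein-coding autosomal genes that were silent or nearly silent in parental NIH3T3 fibroblasts, 16 (0.172%) had clearly measurable RNA in at least 1 of 3 clones of that line in which Aebp1 had been knocked out. Silent here means a parental mean of at most 0.5 counts per 1000000 counts (CPM). A clone was said to have gained a gene when the mean of its libraries was at least 2 CPM and at least 8 times the parental mean. Hox genes and Angpt1 were left out, and 20511 protein-coding autosomal genes remained eligible of 48795 genes in the count table. Of the 16, 15 are reported by name: Aire, Apob, Atp2a3, Ceacam1, Dennd2d, Dio2, Dynap, Enpp2, Fetub, Gdap1l1, Mamdc2, Ostn, Sh3bgrl2, Sspo and Tenm2. They were chosen by these measured values, so every level set against the parental line below is a description and carries no test.

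NIH3T3 is an immortalised line of mouse embryonic fibroblasts. Total RNA was sequenced from 12 libraries: wild-type parental cells at passages 6, 7 and 8, and the Aebp1 knockout clones F5, G5 and H7 at passages 7, 8 and 9 each. All were grown in the same serum-containing medium, per the labels' protocols. Aebp1 encodes a secreted carboxypeptidase-like protein of the extracellular matrix. A clone descends from 1 cell, whereas the parental line is an uncloned population, so cloning and the loss of Aebp1 cannot be told apart as the source of any difference between a clone and the parental line. The labels do not say that passages are separate cultures, and p-values therefore measure only the spread between these libraries.

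Most genes of other tissues are kept off in a fibroblast. Deacetylated histones, Polycomb complexes and methylation of histone H3 at lysine 9 are among the means of keeping them off, and methylation of cytosines in CpG dinucleotides is another. Promoters rich in CpG are usually unmethylated and often serve genes that many tissues use, while promoters poor in CpG more often serve genes of 1 tissue. The state of a silent gene is commonly passed on through cell division, so the cells of a clone tend to share it. In RNA from a bulk culture, more cells with a transcript and more transcript per cell cannot be told apart.

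Library totals lay between 22088714 and 31329755 counts. Aebp1 RNA stood at 553 ± 71.1 CPM (SD, n = 3) in the parental line and at 35.0%, 23.4% and 26.2% of that in F5, G5 and H7. All 10 fibroblast markers listed were at 1 CPM or more in all 4 lines, with a summed level of 22800 to 29000 CPM. None of 6 endothelial, 6 skeletal muscle or 8 liver markers reached 1 CPM in any line, and Epcam, Cldn4, Cldn7, Ttr, Apoc3 and Ahsg had 0 counts in all lines. Of 8 epithelial markers, Krt14 alone passed 1 CPM, in G5. Among 8 neural and glial markers, 4 passed 1 CPM in every line, Tubb3, Map2 and Mbp among them, and the summed level was 13.7 to 20.9 CPM in the parental libraries, 24.6 to 26.0 in F5, 18.5 to 24.0 in G5 and 39.1 to 63.5 in H7. The blood markers Cd68 and Csf1r, of 7, and the germ cell marker Sycp1, of 8, also passed 1 CPM in every line. Whether other cell types had a part in any result was not tested.

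H7 gained 12 of the 16 genes, G5 gained 6 and F5 gained 5. Gained by H7 alone were 9 genes: Ostn, Enpp2, Dennd2d, Fetub, Dynap, Ceacam1, Mamdc2, Sh3bgrl2 and Dio2. Gdap1l1 and Sspo were gained by all 3 clones, 2 genes including Apob by F5 and G5, and Atp2a3 by G5 and H7. Aire was gained by F5 alone and Tenm2 by G5 alone, and no gene was gained by F5 and H7 without G5. These patterns shift with the limits. On deposited TPM at the same limits Sspo counted for F5 and G5, Gdap1l1 and Ostn counted for G5 and H7, and no gene was gained by all 3 clones. Gdap1l1 was left to H7 alone at 16 times parental or with every library at 2 CPM. It counted for G5 and H7 without parental passage 7 or 8 or F5 passage 8, and for F5 and H7 without G5 passage 8. Apob was left to F5 alone at 16 times parental, and Ostn counted for G5 and H7 without G5 passage 7. Atp2a3 counted for all 3 clones without F5 passage 7 or 9, for H7 alone without G5 passage 8 and for G5 alone without H7 passage 7. The 16 genes together summed to between 2.97 and 3.16 CPM in the parental libraries. At passages 7, 8 and 9 the sum was 21.0, 32.1 and 21.2 CPM in F5, 18.3, 44.8 and 22.0 in G5, and 57.3, 48.1 and 41.5 in H7.

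Over the 23 pairs of a gene and a clone that gained it, the clone mean was 8.01 to 162 times the parental mean, with a median of 19.0. On a scale corrected for transcript length (TPM), the highest means in a gaining clone ran from 7.44 ± 1.65 TPM for Ostn in H7 (SD, n = 3) through 5.03 ± 0.835 for Enpp2 in H7 and 4.15 ± 1.47 for Gdap1l1 in H7 down to 0.564 ± 0.386 for Tenm2 in G5 and 0.515 ± 0.103 for Apob in F5. Many neighbours in that order lay within 1 another's SD, among them Dennd2d, Fetub, Dynap and Ceacam1 in H7 at 3.51, 3.38, 3.25 and 3.19 TPM. Each gene's top level was above that of 46.1% to 59.3% of the eligible genes in the same clone. Of the 20511 eligible genes, 9283 were silent in the parental line, so these were low transcripts even where they were gained.

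Several genes lay near a limit of the choice. Just inside the parental limit were Enpp2 at 0.474, Dennd2d at 0.453 and Fetub at 0.347 CPM, and just outside were Lrp2 at 0.512, Hecw1 at 0.519 and Cngb1 at 0.551 CPM. Just inside the clone limit were Dynap at 2.18, Aire at 2.21 and Sh3bgrl2 at 2.24 CPM, while Tmem74 and Cyp4f40 at 1.96 and Agt at 1.95 CPM missed it. Fetub at 8.01, Dio2 at 8.69 and Dennd2d at 10.0 times parental were just inside the limit on the ratio, and Pdzd7 at 7.96, Cd80 at 7.01 and Ccl9 at 6.74 times were just outside. The scatter of clone against parental means shows these limits.

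**Figure D1:**
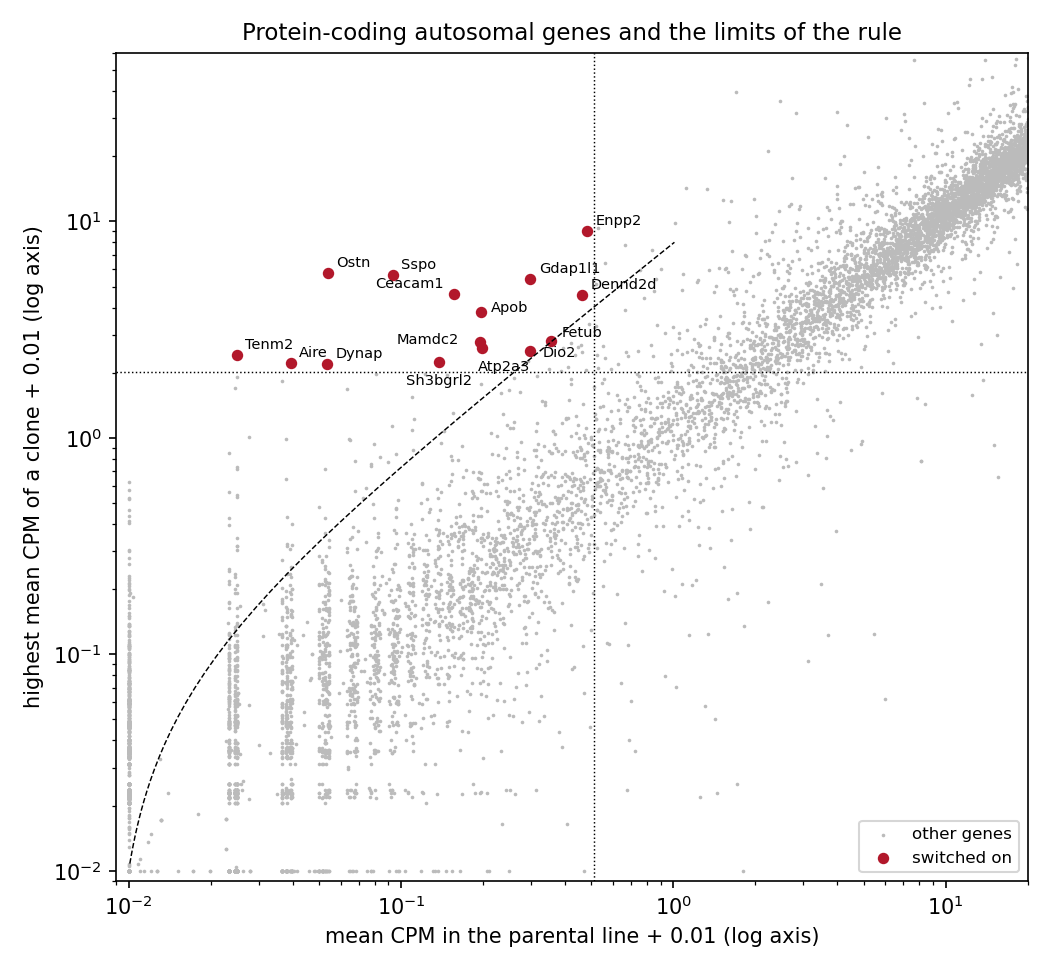
Mean CPM in the parental line (x) against the highest mean CPM of any clone (y), each plus 0.01 and on log axes, for protein-coding autosomal genes; dotted lines mark 0.5 and 2 CPM and the dashed line 8 times parental. The 15 named genes sit left of 0.5 CPM and above both other limits, with Enpp2, Dennd2d and Fetub closest to the parental limit.

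In every gaining pair, the lowest library of the clone lay above the highest parental library: 5 of 5 genes in F5, 6 of 6 in G5 and 12 of 12 in H7, where 15.4%, 14.8% and 14.9% of all 14704 genes tested did so. The choice used these contrasts, and nothing is read from that count. The parental values were chosen to be low, so the counts that follow, for genes that a clone had not gained, are a description as well. Above the parental range in F5 were 6 of the 11 genes it had not gained (Tenm2, Atp2a3, Ostn, Enpp2, Mamdc2 and Sh3bgrl2), in G5 5 of 10 (Aire, Ostn, Enpp2, Mamdc2 and Sh3bgrl2) and in H7 1 of 4 (Tenm2). The ranges of F5 and of G5 overlapped the parental range for Dennd2d, Fetub, Dynap, Ceacam1 and Dio2, and that of H7 did so for the other 3 genes it had not gained, Aire and Apob among them.

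**Figure D2:**
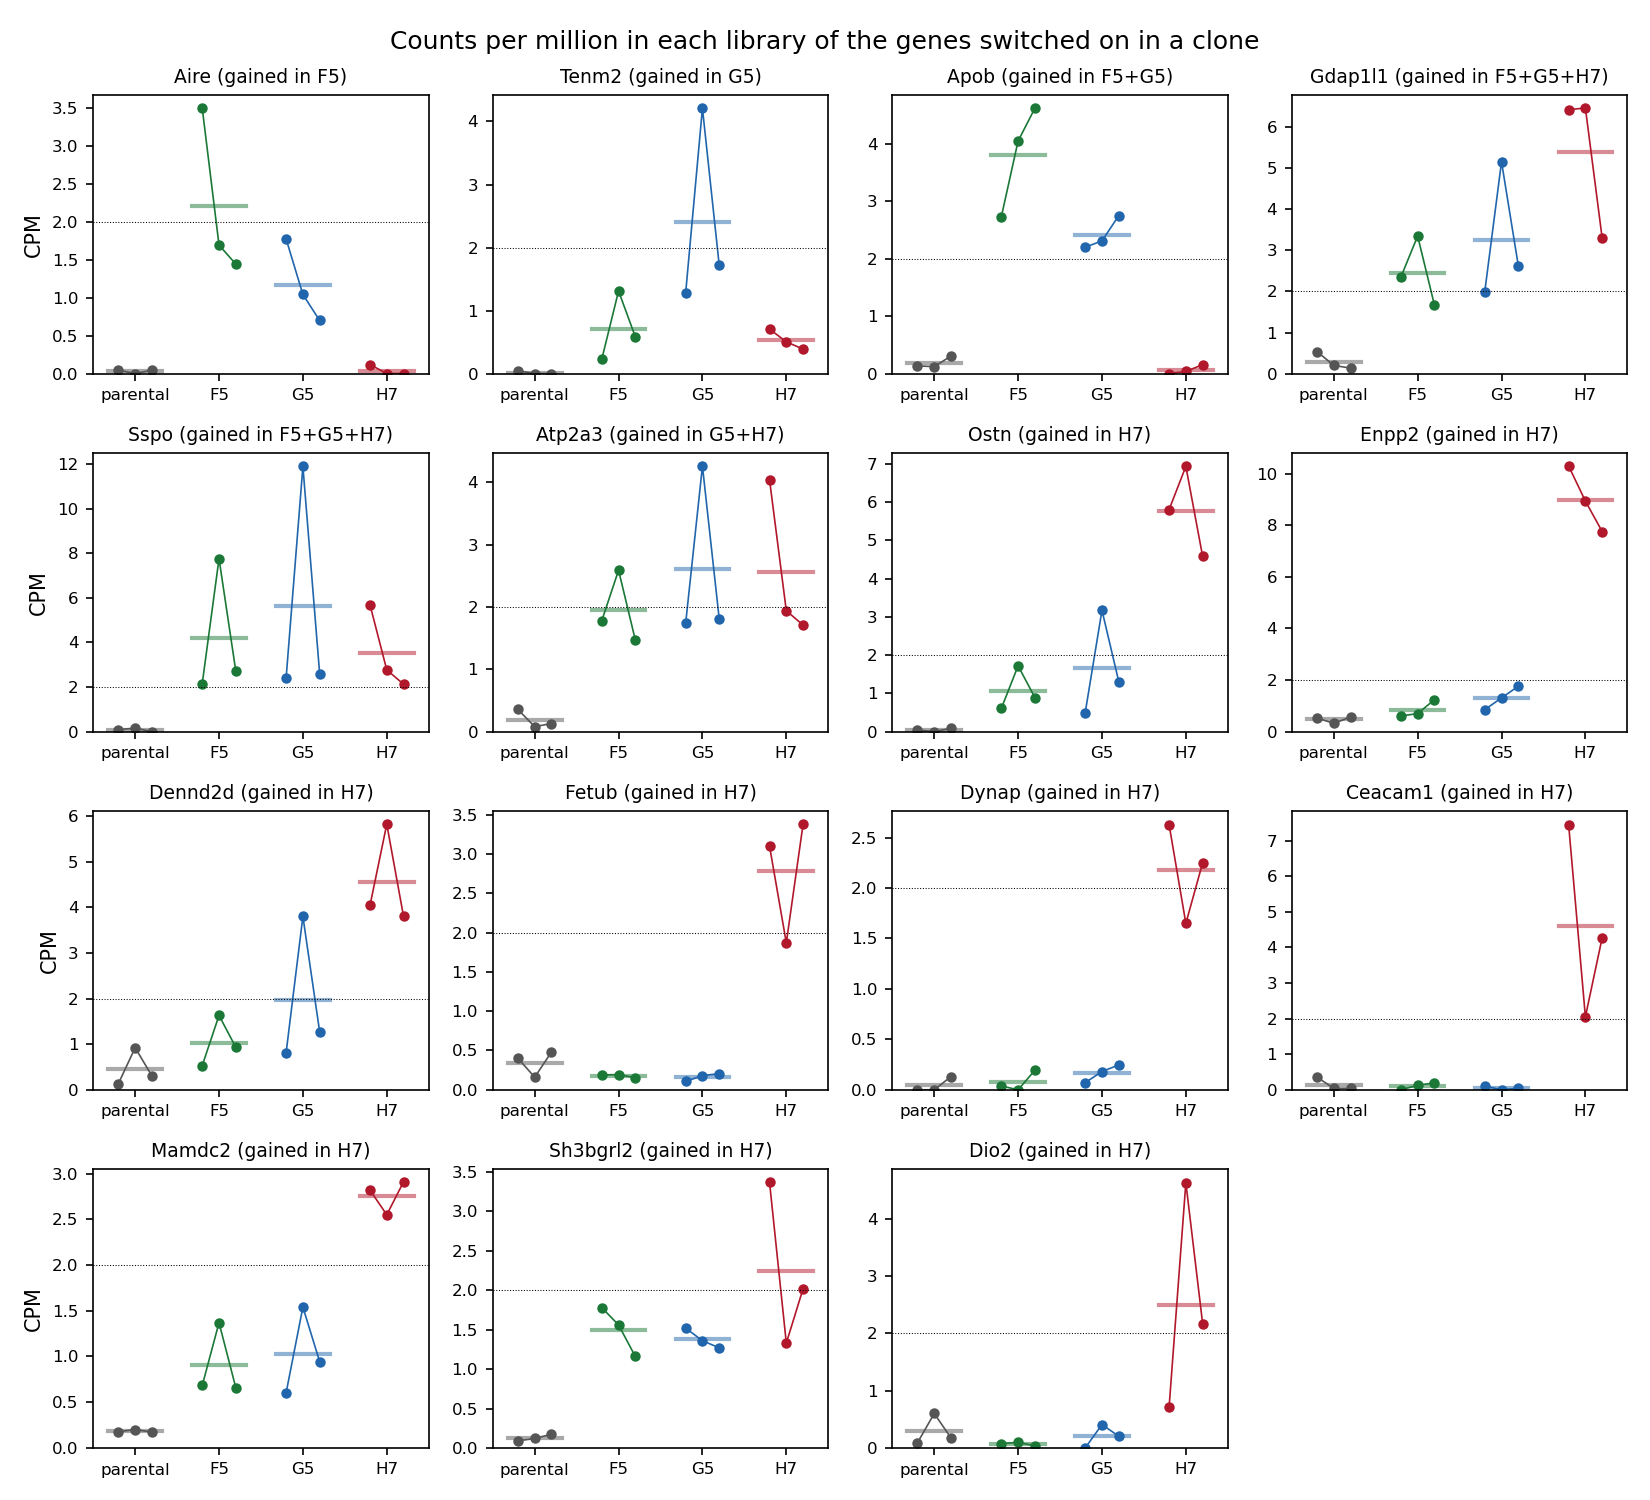
CPM of 15 of the genes (y, linear, own scale per panel) in the 12 libraries by line (x), points joined in order of passage, with a bar at each line's mean and a dotted line at 2 CPM. Ostn, Enpp2, Fetub, Dynap and Ceacam1 stand highest in H7, Apob in F5 and G5, and Sspo at passage 8 of F5 and G5.

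The promoters of 4 of the genes are shown because they span the range of CpG content found among them and cover genes gained by all clones, by F5 alone and by H7 alone. Each window holds the 300 bases from 250 before to 50 after the RefSeq start (GRCm38.p6), printed 5′ to 3′ on the gene's strand, with every CpG in capitals. They are chr6:48447924-48448223 on the plus strand (Sspo), chr7:25477576-25477875 on the minus strand (Ceacam1), chr10:78043561-78043860 on the minus strand (Aire) and chr9:83548088-83548387 on the plus strand (Sh3bgrl2).
Sspo: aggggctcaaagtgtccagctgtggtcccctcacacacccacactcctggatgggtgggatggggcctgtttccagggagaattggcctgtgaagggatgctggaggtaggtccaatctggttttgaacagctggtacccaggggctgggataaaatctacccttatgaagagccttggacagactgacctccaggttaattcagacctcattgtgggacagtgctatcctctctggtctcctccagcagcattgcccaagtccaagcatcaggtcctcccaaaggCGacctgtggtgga
Ceacam1: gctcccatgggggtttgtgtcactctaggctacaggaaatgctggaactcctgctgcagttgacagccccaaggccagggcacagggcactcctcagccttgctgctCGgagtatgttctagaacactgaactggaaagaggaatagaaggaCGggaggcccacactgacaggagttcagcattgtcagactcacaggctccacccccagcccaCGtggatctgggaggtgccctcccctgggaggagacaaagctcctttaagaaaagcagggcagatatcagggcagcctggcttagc
Aire: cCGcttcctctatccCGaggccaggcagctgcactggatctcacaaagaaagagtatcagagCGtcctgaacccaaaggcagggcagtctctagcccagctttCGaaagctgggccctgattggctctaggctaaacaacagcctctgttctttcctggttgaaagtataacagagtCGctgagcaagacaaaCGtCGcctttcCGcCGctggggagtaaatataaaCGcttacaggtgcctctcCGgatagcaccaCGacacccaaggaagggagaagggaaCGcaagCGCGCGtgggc
Sh3bgrl2: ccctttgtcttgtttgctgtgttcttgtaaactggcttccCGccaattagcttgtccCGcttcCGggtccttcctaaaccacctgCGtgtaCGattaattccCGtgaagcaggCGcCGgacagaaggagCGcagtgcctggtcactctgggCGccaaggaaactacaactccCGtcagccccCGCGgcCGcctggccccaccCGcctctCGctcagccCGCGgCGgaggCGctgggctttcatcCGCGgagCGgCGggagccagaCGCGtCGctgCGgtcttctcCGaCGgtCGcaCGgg

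Sspo had 1 CpG in its window and Ceacam1 had 3, against 16 in Aire and 32 in Sh3bgrl2. Relative to the number expected from the C and G content, the observed CpG were 0.04 in Sspo, 0.12 in Ceacam1, 0.70 in Aire and 1.02 in Sh3bgrl2. RefSeq windows were matched for 10 of the 16 genes. The other 6 ratios were 0.17 for Tenm2, 0.20 for Dio2, 0.27 for Fetub, 0.37 for Apob, 0.57 for Dennd2d and 0.71 for Atp2a3. The RefSeq start used for Tenm2 lies 291723 bases from the 5′ end of the gene as GENCODE annotates it, so it stands for an inner start. That of Dio2 lies 600 bases before the GENCODE 5′ end, so its whole window lies outside the annotated gene.

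At a ratio of at least 0.6, taken as rich in CpG, 3 of the 10 genes counted (30.0%: Aire, Atp2a3 and Sh3bgrl2). The share was 18.7% (1263 of 6754) among genes silent in the parental line that no clone gained and 76.6% (6745 of 8808) among genes above 0.5 CPM in the parental line. The median ratio was 0.32 for the switched-on genes, 0.24 for the silent genes that stayed below the limits and 0.79 for the expressed genes. These 10 promoters are few, and at a limit of 0.75 only Sh3bgrl2 remained rich. The letters TATAAA, searched on both strands, were in the windows of Aire, Apob, Dio2 and Fetub, 4 of 10, and in 12.9% of all 19584 promoter windows. CCAAT was in 4 of 10 (Aire, Fetub, Sh3bgrl2 and Sspo) and in 38.3% of all. CACGTG was in Ceacam1 (7.75% of all), TGACGTCA in Dio2 (2.28% of all), and TGANTCA in none of the 10 (7.14% of all).

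**Figure D3:**
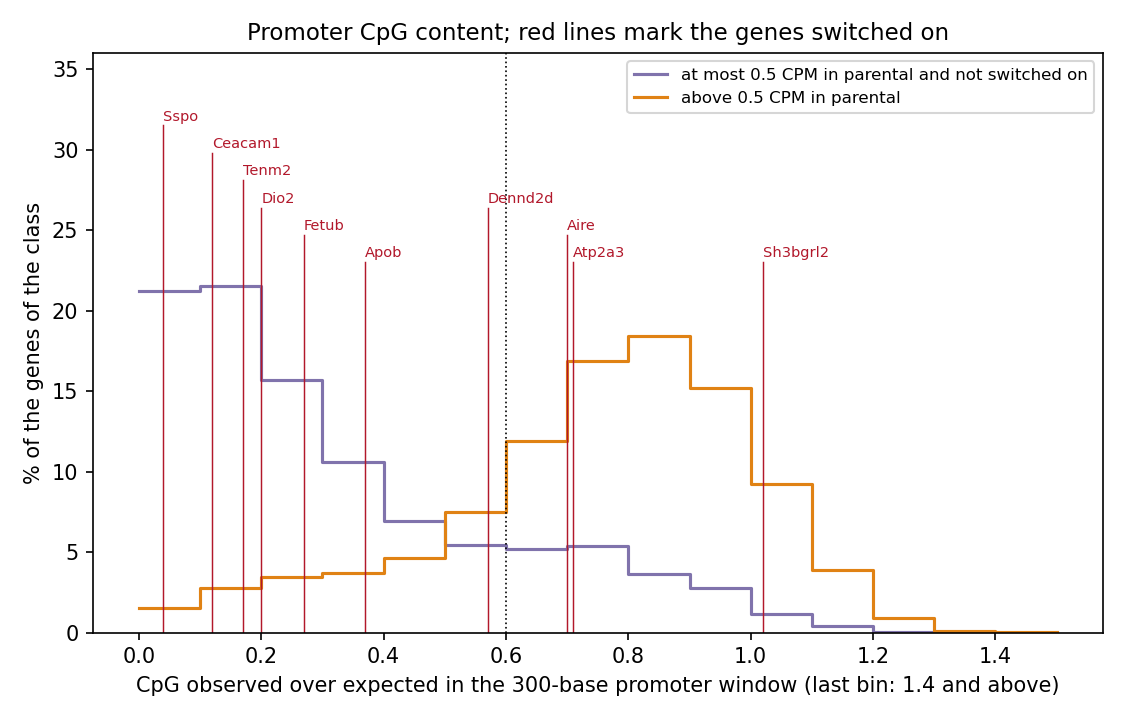
Observed over expected CpG of 300-base promoter windows (x) against the share of genes in each bin of 0.1 (y, percent) for genes silent in the parental line and not switched on and for genes above 0.5 CPM in it; the 10 matched genes are marked at their own ratio. Of the 10, 7 lie below the limit of 0.6, from Sspo at 0.04 to Dennd2d at 0.57, and Aire, Atp2a3 and Sh3bgrl2 lie above it.

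Among the secreted products, Enpp2 and Ostn were the clearest in H7. Enpp2 (chr15:54838901-54952892, minus strand) encodes autotaxin, the secreted enzyme that makes the signalling lipid lysophosphatidic acid. It stood at 10.3, 8.94 and 7.76 CPM at H7 passages 7, 8 and 9, at 0.535, 0.320 and 0.567 in parental passages 6, 7 and 8, at 0.607, 0.702 and 1.24 in F5 and at 0.851, 1.31 and 1.76 in G5. The H7 mean of 8.99 ± 1.26 CPM was 19.0 times the parental mean of 0.474 ± 0.134, and the F5 and G5 libraries all lay between the parental and the H7 ranges.

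Ostn (chr16:27307489-27351212, plus strand) encodes musclin, also called osteocrin, a small secreted peptide of muscle and bone that binds the natriuretic peptide clearance receptor. It was at 5.80, 6.93 and 4.58 CPM in H7, and at 0.0446, 0 and 0.0872 CPM in the parental line. F5 had 0.607, 1.72 and 0.892 CPM and G5 had 0.496, 3.17 and 1.31, all above the parental range and all below that of H7. The parental line gave 3 counts in all against 459 in H7, a ratio of 136 with a 95% exact counting interval of 46.2 to 662. Such intervals cover counting error only.

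Fetub (chr16:22918334-22939778, plus strand), a cystatin-family protein secreted by the liver that inhibits the egg protease ovastacin, was at 3.10, 1.87 and 3.38 CPM in H7. The parental libraries had 0.401, 0.160 and 0.480 CPM, F5 0.155 to 0.192 and G5 0.106 to 0.205. H7 alone stood apart, and F5 and G5 overlapped the low end of the parental range. Mamdc2 (chr19:23302609-23448442, minus strand), a secreted MAM-domain proteoglycan, was at 2.82, 2.55 and 2.91 CPM in H7 and at 0.178, 0.200 and 0.174 in the parental line. F5 at 0.683, 1.37 and 0.659 and G5 at 0.603, 1.54 and 0.944 lay in between without touching either range. The 3 H7 values of Mamdc2 were the most even of any gene gained by H7 alone, at 2.76 ± 0.188 CPM.

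Apob (chr12:7977648-8016835, plus strand) encodes apolipoprotein B, the structural protein of very low and low density lipoprotein particles from the liver and intestine. It was at 2.73, 4.05 and 4.62 CPM in F5 and at 2.20, 2.31 and 2.75 in G5. The parental libraries had 0.134, 0.120 and 0.305 CPM and H7 had 0, 0.0359 and 0.155. F5 and G5 were both wholly above the parental line, and H7 overlapped its lower end. Sspo (chr6:48448229-48501250, plus strand) encodes SCO-spondin, a giant glycoprotein that builds Reissner's fibre in cerebrospinal fluid. It was at 2.16, 7.76 and 2.72 CPM in F5, at 2.41, 11.9 and 2.59 in G5 and at 5.69, 2.77 and 2.13 in H7, against 0.0891, 0.160 and 0 in the parental line. All 9 clone libraries were above the parental ones, with passage 8 the highest in F5 and G5 and passage 7 the highest in H7.

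Atp2a3 (chr11:72961169-72993044, plus strand) encodes the ion pump SERCA3, which pumps calcium into the endoplasmic reticulum, mainly in blood and epithelial cells. G5 had 1.74, 4.26 and 1.81 CPM and H7 had 4.04, 1.94 and 1.71, against 0.356, 0.0801 and 0.131 in the parental line. F5 at 1.78, 2.59 and 1.47 CPM lay above the parental range in every library and missed the limit of 2 with a mean of 1.95.

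At the cell surface were Ceacam1, Tenm2 and Dynap. Ceacam1 (chr7:25461707-25477603, minus strand) is a homophilic adhesion molecule of epithelial, endothelial and immune cells with an inhibitory cytoplasmic tail. It was at 7.45, 2.05 and 4.27 CPM in H7, at 0.356, 0.0401 and 0.0436 in the parental line, at 0, 0.128 and 0.194 in F5 and at 0.106, 0 and 0.0410 in G5. Only H7 stood above the parental range in all its libraries, and its own passages were uneven at 4.59 ± 2.72 CPM. The antisense gene 4732471J01Rik overlaps 15897 bases of Ceacam1 and was at 1.67 CPM in the parental line and 1.63 in H7. Libraries were made with a stranded kit, but no source used here says whether strand was used in counting, and without it reads of the pair cannot be told apart.

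Tenm2 (chr11:36006656-37235964, minus strand) encodes teneurin-2, a large transmembrane protein that binds latrophilins across synapses. G5 had 1.28, 4.21 and 1.72 CPM, F5 0.228, 1.31 and 0.582, and H7 0.706, 0.503 and 0.388. The parental libraries held 1 count between them, at 0.0446 CPM in passage 6 and 0 in the others, so all 9 clone libraries lay above. The ratio of G5 to parental was 161, with a 95% exact counting interval of 28.5 to 6400. Dynap, on chromosome 18, encodes a membrane protein found to interact with dynactin. It had 2.63, 1.65 and 2.25 CPM in H7, 0, 0 and 0.131 in the parental line, and at most 0.194 in F5 and 0.246 in G5. Its ratio of H7 to parental, 171 against 3 counts, was 50.7 with an interval of 17.0 to 248.

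Inside the cell, Gdap1l1 (chr2:163438476-163455324, plus strand) was gained by all 3 clones. It is a paralogue of the mitochondrial fission gene Gdap1 that is expressed mainly in the nervous system. Its levels were 2.35, 3.35 and 1.67 CPM in F5, 1.99, 5.16 and 2.63 in G5, 6.43, 6.47 and 3.30 in H7 and 0.535, 0.200 and 0.131 in the parental line. Every clone library exceeded every parental one, and H7 had the highest mean at 5.40 ± 1.82 CPM.

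Aire (chr10:78030022-78043610, minus strand) is the autoimmune regulator that drives expression of tissue antigens in the thymus. It was at 3.49, 1.69 and 1.44 CPM in F5 and at 1.77, 1.04 and 0.698 in G5, against 0.0446, 0 and 0.0436 in the parental line and 0.118, 0 and 0 in H7. F5 and G5 lay above the other lines in all libraries, although G5 missed the limit with a mean of 1.17 CPM. The counts were 182 in F5 against 2 in the parental line, a ratio of 76.7 with an interval of 20.9 to 638. Aire overlaps Dnmt3l by 1664 bases on the opposite strand, and Dnmt3l had means of 3.10 CPM (parental), 3.83 (F5), 4.16 (G5) and 2.07 (H7). Without knowledge of strand in counting, reads of this pair cannot be told apart where they overlap, which touches the Aire values and ratio above.

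Dennd2d (chr3:106482405-106503030, plus strand) encodes a DENN-domain activator of Rab GTPases. It was at 4.04, 5.82 and 3.80 CPM in H7, at 0.134, 0.921 and 0.305 in the parental line, at 0.531, 1.63 and 0.931 in F5 and at 0.815, 3.80 and 1.27 in G5. Passage 8 of G5 reached the lowest H7 library, while the other F5 and G5 libraries lay within or near the parental range. Dio2 (chr12:90724552-90738438, minus strand) encodes type 2 deiodinase, which makes active thyroid hormone inside cells. H7 had 0.706, 4.63 and 2.17 CPM and the parental line 0.0891, 0.601 and 0.174, a narrow gap between the lowest H7 and the highest parental library. F5 at 0.0388 to 0.0958 and G5 at 0 to 0.407 CPM overlapped the parental line.

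Sh3bgrl2 (chr9:83548327-83638801, plus strand) encodes a small protein of the thioredoxin fold. It was at 3.37, 1.33 and 2.02 CPM in H7, at 1.78, 1.56 and 1.16 in F5, at 1.52, 1.36 and 1.27 in G5 and at 0.0891, 0.120 and 0.174 in the parental line. All clone libraries lay above the parental ones and the 3 clones overlapped each other, so the label of a gene gained by H7 alone rests here on the limit of 2 CPM.

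Where 2 or more clones gained a gene, the choice set no direction between them, and the difference was tested with edgeR's quasi-likelihood test and Benjamini-Hochberg adjustment over all 14704 genes. Of the 9 such comparisons none passed an adjusted p of 0.05, with 1 at an unadjusted p under 0.05 and 1 called by DESeq2. Over all genes, 0.258% differed between F5 and G5, 17.9% between F5 and H7 and 17.4% between G5 and H7. Gdap1l1 was nearest, with F5 below H7 by a log2 difference of -1.16 (SE 0.43, adjusted p = 0.0858). With passage number as a replicate block its log2 difference was -1.18 (adjusted p = 0.0256), and DESeq2 gave -1.17 (adjusted p = 0.0487). Gdap1l1 in G5 against H7 differed by -0.78 (SE 0.42, adjusted p = 0.257). Sspo differed between clones by 0.23 (SE 0.68, F5 minus H7), -0.40 (SE 0.67, F5 minus G5) and 0.63 (SE 0.68, G5 minus H7), none of them beyond its error. Apob in F5 minus G5 was 0.66 (SE 0.34), and Atp2a3 in G5 minus H7 was -0.02 (SE 0.45).

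Levels were also compared between passages inside a line. The choice used the mean of a line and not the order of its passages, but a single high library can carry a gene past the limits: Tenm2 is not chosen without G5 passage 8, nor Dio2 without H7 passage 8. No gene of the 16 followed a steady trend with passage number by edgeR's quasi-likelihood test with Benjamini-Hochberg adjustment (2 at an unadjusted p under 0.05, none by DESeq2), against 0.0204% of all genes. The middle library of each line, passage 7 in the parental line and passage 8 in the clones, differed from the outer ones for many genes: 13.9% of all genes were called higher there and 13.7% lower. Of the 16, 5 were called higher and none lower, with 9 at an unadjusted p under 0.05 and 4 called by DESeq2. Tenm2, Dio2 and Dennd2d are among the 5. Middle libraries helped to choose Tenm2 and Dio2. Low outer parental libraries helped to choose Dennd2d, which is not chosen without parental passage 6 or 8. Nothing is therefore read from the count, and Tenm2, Dio2 and Dennd2d are described without a test.

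The middle library of Dennd2d stood at 5.82 CPM in H7, 3.80 in G5, 1.63 in F5 and 0.921 in the parental line. Its outer values there were at most 4.04, 1.27, 0.931 and 0.305 CPM. Ostn was higher at the middle passage by a log2 difference of 1.02 (SE 0.32, adjusted p = 0.0344 by edgeR). This call was lost without F5 passage 7 (0.0684), F5 passage 8 (0.111) or G5 passage 8 (0.205). Sspo was higher by 1.31 (SE 0.42, adjusted p = 0.0381) and rested most on passage 8 of G5, without which the adjusted p was 0.285. Its call was also lost without any other single library of F5, G5 or the parental line (0.0525 to 0.171) and in the 9 clone libraries alone (0.0757). The middle libraries of Tenm2 stood at 4.21 CPM in G5 and 1.31 in F5 against outer values of at most 1.72 and 0.582, and that of Dio2 at 4.63 in H7 against at most 2.17.

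The other genes did not pass, among them Ceacam1 at -1.37 (SE 0.55, adjusted p = 0.085), which passed without F5 passage 7 (0.0403), and Gdap1l1 at 0.66 (SE 0.27, adjusted p = 0.091), which passed without H7 passage 7 (0.045) or parental passage 6 (0.0341). Mamdc2 at 0.52 (SE 0.23, adjusted p = 0.109) passed without H7 passage 8 (0.0168). The middle library held the highest of a line's 3 values for 10 of the 16 genes in F5, 9 in G5, 4 in H7 and 5 in the parental line. These include Tenm2, Dio2 and Dennd2d, which were chosen partly through these libraries. The share over all genes was not counted, so nothing is read from these numbers.

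A test of whether the middle-passage difference was larger in F5 and G5 than in H7, added after the values were seen, called none of the 16 and none of 14704 genes by edgeR (3 and 603 at an unadjusted p under 0.05, no other tool run). Sspo came nearest, at a log2 difference of 2.44 (SE 0.64, unadjusted p = 0.00503, adjusted p = 1). The labels give no batch beyond passage, and what the middle libraries share beside it was not tested.

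**Figure D4:**
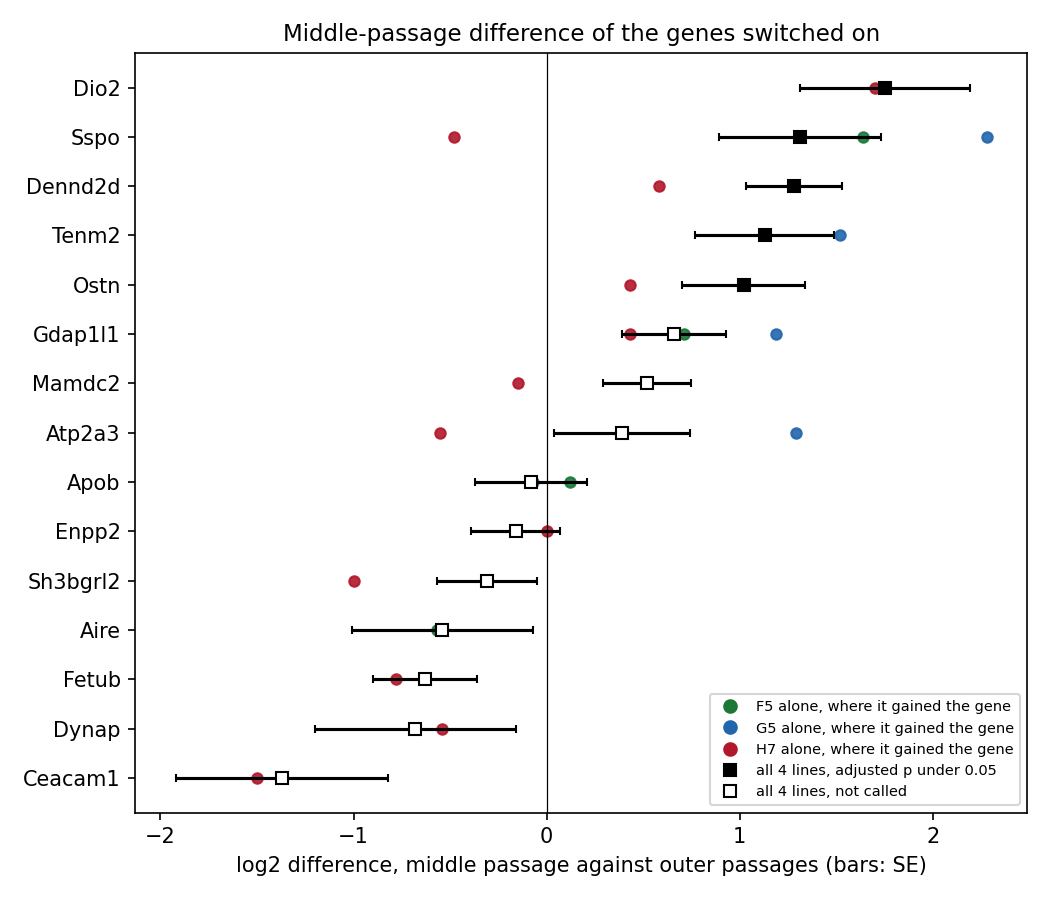
Log2 difference of the middle from the outer passages (x) for 15 of the genes (y): squares are the common difference over all 4 lines with bars of 1 SE, filled where the adjusted p was under 0.05, and coloured points are the clones that gained the gene, each alone. Dennd2d, Dio2, Ostn, Tenm2 and Sspo have filled squares, between 1.02 and 1.75. Of these, Dio2 and Tenm2 were chosen partly on their middle library and Dennd2d partly on its outer parental libraries. The H7 point of Sspo lies at -0.48.

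The 16 genes were spread over 12 chromosomes with at most 2 on any 1. No pair was within 200 kb; Fetub and Ostn on chromosome 16, both gained by H7 alone, lay 4368 kb apart. The nearest expressed genes on each side that were not switched on, and any that overlap, gave 50 comparisons with the gaining clone over 36 distinct genes. By edgeR's quasi-likelihood test, 3 of 11 were higher in F5 (27.3%), 4 of 12 in G5 (33.3%) and 6 of 27 in H7 (22.2%). Over all genes the shares higher were 6.88%, 6.54% and 9.64%. These shares were not matched by chromosome, and some chromosomes were shifted as a whole in H7, as given below. Lower were 2 in F5, 1 in G5 and 2 in H7, where 7.37%, 6.56% and 9.92% of all genes were lower. The median log2 difference of these neighbours was 0.11.

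Most of these neighbours moved little. Pfkl, a phosphofructokinase gene 19.9 kb from Aire, rose in F5 from 95.9 ± 21.9 to 192 ± 16.1 CPM (log2 difference 1.00, SE 0.16, adjusted p = 0.00234). Fitm2, a lipid droplet gene 11.1 kb from Gdap1l1, rose by a log2 difference of 0.56 in F5 and 0.55 in G5. Ccdc50 rose by 0.62 beside Ostn in H7. The one large rise was 2010016I18Rik, which overlaps 3509 bases of Dennd2d on the opposite strand and went from 0.196 ± 0.131 to 2.66 ± 0.304 CPM in H7 (3.74, SE 0.44, adjusted p = 0.000204). Reads of that pair cannot be told apart where they overlap, for the reason given for Ceacam1. The same limit holds for Cept1, which overlaps 771 bases of Dennd2d on the opposite strand. Cept1 stood at 25.8 CPM in the parental line and 33.1 in H7. Both overlaps touch the Dennd2d values given above.

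Others fell beside a gene that was gained. Zfp467, 2.4 kb from Sspo, fell in H7 (-3.52, SE 0.75, adjusted p = 0.00762) from a parental mean of 5.06 ± 4.67 CPM. Zfp862-ps, on the other side of Sspo at 3.09 kb, fell in all 3 clones by log2 differences of -0.54, -0.44 and -0.42; the call in G5 was lost without G5 passage 7 (adjusted p = 0.0538). In H7 the genes of whole chromosomes were shifted, with a median log2 difference of 0.45 on chromosome 15, which holds Enpp2, 0.22 on 16, which holds Ostn and Fetub, 0.25 on 18, which holds Dynap, and -0.22 on 6, which holds Sspo. The neighbours Taf2 (Enpp2), Eif4a2 (Fetub), Ccdc50 (Ostn) and 4930503L19Rik (Dynap), called higher in H7, lie on chromosomes 15, 16 and 18. The edgeR call of 4930503L19Rik was lost without H7 passage 7, 8 or 9 or parental passage 7 or 8 (adjusted p from 0.0692 to 0.11). The other neighbours called higher in H7, 2010016I18Rik and Cept1, overlap Dennd2d. The edgeR call of Cept1 was lost without H7 passage 7 (0.0501) and with passage as a replicate block (0.059). Whether the chromosome shifts account for the higher calls of neighbours in H7 was not tested.

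Receptors, partners and relatives of the 16 genes were listed after the genes were known: 48 genes, of which 33 passed the filter on low counts. By edgeR's quasi-likelihood test, 2 were higher and 4 lower in F5, 1 and 3 in G5, and 5 and 6 in H7. The shares over all genes were 6.88% higher and 7.37% lower in F5, 6.54% and 6.56% in G5, and 9.64% and 9.92% in H7. Of 3 natriuretic peptide receptor genes, Npr3, which encodes the clearance receptor that musclin binds, stood at 21.2 ± 16.6 CPM in the parental line and 76.7 ± 29.6 in H7 (log2 difference 1.88, SE 0.50, adjusted p = 0.0225). The parental libraries were uneven, at 40.2, 9.41 and 14.1 CPM, and the call was lost without H7 passage 7 (0.0896) or parental passage 8 (0.0764). Npr1, the guanylyl cyclase receptor for atrial natriuretic peptide, fell in all 3 clones by log2 differences of -1.98, -2.23 and -1.79, and Npr2 fell in H7 by 0.42 on the log2 scale, a call lost without H7 passage 7 (0.0541).

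For the product of autotaxin, the lysophosphatidic acid receptor gene Lpar4 rose in H7 from 5.67 ± 1.31 to 17.0 ± 1.21 CPM (log2 difference 1.61, SE 0.16, adjusted p = 7.76e-05) and was at 4.88 in F5 and 4.73 in G5. Plpp2, a lipid phosphate phosphatase that can break the lipid down, rose by 1.15 in F5, 0.89 in G5 and 0.56 in H7. Tenm4, a relative of Tenm2, rose in H7 from 57.5 ± 29.7 to 210 ± 28.1 CPM (1.90, adjusted p = 0.0103). With passage as a replicate block the adjusted p was 0.0675, although the parental libraries did not pair with the clones by number. H7 had not gained Tenm2. Of 4 tested genes listed for Tenm2, 0 were higher and 1 was lower in G5, which had gained it, and the same held in F5.

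Of 78 genes that write, read or erase DNA methylation and repressive histone marks, 77 were tested. By edgeR's quasi-likelihood test with Benjamini-Hochberg adjustment, 2 were higher and 8 lower in F5, 2 and 4 in G5 and 5 and 9 in H7. Over all genes 6.88% were higher and 7.37% lower in F5, 6.54% and 6.56% in G5 and 9.64% and 9.92% in H7. The median log2 differences of the list were -0.03, -0.02 and -0.04, against -0.007, -0.01 and -0.02 over all genes. Uhrf2, a reader of hemimethylated DNA, fell in all 3 clones: the parental 65.3 ± 4.71 CPM compared with 53.7 ± 2.42 for F5, 54.6 ± 2.62 for G5 and 42.0 ± 2.24 for H7 (log2 differences -0.29, -0.27 and -0.61, adjusted p = 0.0153, 0.0211 and 0.000134). The smaller falls were lost without F5 passage 7 (0.0748 for F5) and without G5 passage 7 or 8 (0.0843 and 0.0593 for G5), and both with no filter on low counts (0.0519 and 0.0615). Pcgf5, a subunit of variant Polycomb repressive complex 1, rose by 0.54, 0.71 and 0.45 in F5, G5 and H7, and its H7 call was lost without H7 passage 7 or 8 or parental passage 6 (0.0604 to 0.0826).

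E2f6, a repressor that recruits a Polycomb complex to germline genes, was counted 78 times over the parental libraries, 38 times over F5, 29 over G5 and 0 over H7. The parental mean was 1.12 ± 0.361 CPM, and all 3 H7 libraries were at 0, which allows up to 0.0379 CPM (3 counts over the line), so E2f6 was at least 29.2-fold lower in H7. Its levels in F5 and G5 were 0.447 ± 0.110 and 0.399 ± 0.132 CPM, with adjusted p = 0.0431 and 0.0305, calls that were lost on leaving out 8 and 5 of the 12 libraries in turn (adjusted p up to 0.14). The F5 call was also lost with passage as a replicate block (0.0634) and with no filter on low counts (0.0706). Sirt1, a deacetylase, fell in F5 to 10.2 ± 0.75 and in H7 to 8.36 ± 0.632 CPM, against 15.9 ± 0.324 in parental cells (log2 differences -0.64 and -0.90). In H7, Mbd2, a methyl-CpG binding protein gene, rose by 0.53, Pphln1, a subunit of the HUSH silencing complex, rose by 0.52, and Phf1, a Polycomb accessory protein gene, fell by 0.47 on the log2 scale. Whether any of these has a part in the levels of the 16 genes was not tested.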

How the data were processed

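Total RNA of 12 libraries was measured, 3 passages of each of 4 lines. The authors deposited estimated counts per gene and a TPM table for 48795 Ensembl genes. The build is GRCm38 per the submitters' processing notes, and for aligner, counter and strand use: not given in the sources used here (no label or header names them). The deposited counts are partly fractional (86.9% of those over 0.5 were whole to 0.01), and all were rounded for tests. Every deposited TPM column summed to 1000000. Identifiers were matched to GENCODE M21 (48349 matched), and promoter windows are RefSeq's for GRCm38.p6.

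CPM was the count divided by the column sum. The main test was edgeR 4.0.16 (glmQLFit and glmQLFTest in R 4.3.3) with TMM scaling, filterByExpr (14704 genes, all 16 members among them) and Benjamini-Hochberg adjustment at 0.05. Log2 differences come from it. Scripts were tested on simulated data. Other settings were DESeq2 1.42.0, RLE factors, no filter, passage as a replicate block, and omission of each library.

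Same-numbered passages deviated together between clones (r from 0.153 to 0.501), so passage numbers paired the clones. Parental libraries did not pair by number (r from -0.526 to -0.187). By order, parental passage 6 deviated together with passage 7 of F5, G5 and H7 (r = 0.398, 0.468 and 0.426). Parental passage 7 did so with their passage 8 (r = 0.503, 0.447 and 0.380). For parental passage 8 and their passage 9, r was 0.109, 0.0604 and 0.0447. No comparison of a clone with the parental line used this order as a block. The replicate block therefore misaligns comparisons of a clone with the parental line, and calls lost under it there are given for completeness.

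The members, gene lists and tests were chosen with earlier results of these data known. Partner genes, liver markers, roles and the middle-passage interaction were chosen after the members were seen. Genes named were the top members by TPM in each pattern (up to 6) and role, members near a limit, called members, and up to 2 list genes per clone with the smallest adjusted p. Neighbouring genes were named after their values were seen. Results for 1 member and a few other genes are not reported here.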

Additional observations from a re-analysis of the deposited data

How the results depend on the processing

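The number of switched-on genes stayed within 1.5 times of 16 under most other limits, but was 9 when every library of the clone had to reach 2 CPM and 28 when 4 times parental was enough; omitting 1 library gave 15 to 19. Aire was lost without F5 passage 7, Tenm2 without G5 passage 8, and Dynap and Sh3bgrl2 without H7 passage 7. Fetub was lost without H7 passage 7 or 9 or parental passage 7, Dio2 without H7 passage 8 or parental passage 6 or 8, Dennd2d without parental passage 6 or 8, and Enpp2 without parental passage 7. Calls among the 9 differences between gaining clones numbered 1 with DESeq2 and 1 with the replicate block, against 0, and 0 to 0 with a library left out. Passage trends gave 0 to 0 calls, and the middle passage 2 to 6 with a library left out and 3 in the 9 clone libraries, against 5. Of the silencing list, without a filter on low counts F5 had 1 higher and 2 lower and G5 1 higher and 2 lower; with the replicate block F5 had 4 lower; with DESeq2 G5 had 4 higher and 7 lower. With a library left out the higher calls were 1 to 3 in F5, 1 to 3 in G5 and 3 to 6 in H7, and the lower calls 2 to 9, 1 to 5 and 8 to 10. Neighbour calls were then 10 to 15 higher and 4 to 5 lower. Over all genes, leaving out a library gave 635 to 1045 higher and 547 to 1167 lower in F5, 570 to 959 and 496 to 1085 in G5, and 916 to 1436 and 907 to 1473 in H7. At a CpG limit of 0.75, 1 promoter was rich against 3. No result reversed, and the cause of these moves was not tested. On deposited TPM at the same limits 14 genes qualified, 9 of them shared. Among those lost on TPM were Apob, Atp2a3, Dio2, Mamdc2, Sh3bgrl2 and Tenm2. With every library of the clone at 2 CPM, Aire, Atp2a3, Dio2, Dynap, Fetub, Sh3bgrl2 and Tenm2 were lost. Genes with 1 to 3 parental counts (Aire, Tenm2, Ostn and Dynap) have ratios that depth leaves wide.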
